A study of Mus musculus with 33 samples.

Results

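The 10 genes described here encode parts of the machinery that holds sister chromatids together in the oocyte and that times their separation. They were selected by name from the deposited table of counts per gene, which holds 35321 genes once repeated entries are left out. *Rec8*, *Smc1b*, *Smc3*, *Stag3* and *Rad21* encode subunits of cohesin, *Bub1b* and *Mad2l1* encode spindle checkpoint proteins, and *Aurka*, *Aurkc* and *Plk1* encode mitotic and meiotic kinases. All 10 were found in the table, and 9 of them averaged 10 or more normalized counts across the 33 libraries. *Rec8* did not.

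The RNA of single germinal vesicle oocytes was sequenced from 3-week-old females on a C57BL6/Babr background, in 3 genotypes of *Nlrp5*, a gene of the subcortical maternal complex that carries a CRISPR-made deletion with a premature stop in the mutant allele. According to the study's methods, wild-type females usually came from the colony of origin, and the mutants were littermates of each other. Oocytes are at the NSN stage, in which chromatin does not surround the nucleolus, or at the more mature SN stage, in which it does. The study inferred the stage from marker genes in these same libraries, and none of the 10 genes is among those markers. The groups were 4 NSN and 6 SN oocytes of *Nlrp5* +/+ (WT), 9 NSN and 7 SN oocytes of *Nlrp5* +/- (HET), and 4 NSN and 2 SN oocytes of *Nlrp5* -/- (HOM), with 1 further HOM oocyte that has no stage. The mutation is carried by every cell of the animal, and it comes from 1 mouse line.

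Cohesin is a ring of 2 SMC proteins closed by a kleisin and bound by a STAG protein. In mouse oocytes the meiotic rings with REC8 are loaded before birth and have to hold the chromosomes together until the meiotic divisions in the adult, and the loss of this cohesion with age is a known source of aneuploid eggs. The spindle checkpoint delays anaphase while kinetochores are not attached, by blocking the anaphase promoting complex, and the Aurora and Polo kinases build the spindle and correct its attachments. A grown oocyte stores the mRNA of many of these proteins before transcription stops around the SN stage.

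The labels name no mouse, so all oocytes of 1 genotype and stage are treated as 1 sample. No test was made, and the SD and the ranges are the spread between cells. Counts on genes ran from 4223595 to 15573360 per oocyte, and the 9 oocyte markers, *Gdf9* and *Zp3* among them, had counts in each of the 33. *Nlrp5* itself had a mean normalized count of 17797 in WT NSN oocytes, 8802 in HET and 2060 in HOM, and of 11699, 7206 and 2182 at SN, which is the order of the labels. Of 16 granulosa cell markers, the summed level was 263 to 457 CPM (counts scaled to the same library total) in WT, 291 to 421 in HET and 277 to 660 in the staged HOM oocytes, with 1327 in HOM oocyte 15. *Serpine2*, *Cyp19a1* and *Nr5a2* had counts in each of the 33 oocytes. *Serpine2* had lower means in HOM (1616 at NSN and 1658 at SN) than in WT (2114 and 1978). *Nr5a2* had higher ones (319 and 266 against 313 and 231), and *Cyp19a1* went both ways (307 and 419 against 238 and 539). The other 13, picked after their values were seen for a mean under 50 in WT, summed to 1.38 to 13.5 CPM in WT, 1.92 to 30.6 in HET and 10.9 to 308 in staged HOM oocytes. The low sum in WT follows from that pick. 11 markers of theca, stroma, vessels and blood summed to 49.8 to 164 CPM in the staged oocytes, and 5 proliferation markers to 454 to 723 CPM. Because the counts were scaled between libraries, a difference in the total mRNA of an oocyte is not seen in them.

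The tail of a stored mRNA sets whether an oligo-dT primer can catch it, which is how these libraries were made, and in oocytes the cytoplasmic polyadenylation element (CPE) is a sequence that regulates this tail. The last 100 bases of the canonical GENCODE transcript (GRCm39) were therefore searched on the sense strand for the polyadenylation hexamers AATAAA and ATTAAA and for the CPE letters TTTTAT and TTTTAAT. Of the 9 genes whose 3′ UTR is long enough, 4 held a CPE match, *Bub1b*, *Mad2l1*, *Aurka* and *Aurkc*. Of 19609 protein-coding canonical transcripts, 17.0% did, and 77.4% held a hexamer, against 6 of the 9. The 30 bases around 1 CPE match of each gene (*Bub1b* held 2) are shown because *Bub1b*, *Mad2l1* and *Aurka* are among the genes with differences described below. Genes with no match, *Smc1b*, *Smc3*, *Stag3* and *Plk1*, are among them too. Capitals mark the CPE and hexamer matches, which in *Bub1b* lie directly next to each other.
Bub1b: cactgtgtaTTTTATAATAAAatagttttt
Mad2l1: ctgtAATAAAgaactcttaTTTTAATgttt
Aurka: ttaaaggctattTTTTATgttggagttctg
Aurkc: ctcTTTTATgaagtgatgttaATTAAAact
In GRCm39 the *Bub1b* window is chr2:118472037-118472066 on the plus strand, *Mad2l1* chr6:66517945-66517974 on the plus strand, *Aurka* chr2:172198157-172198186 on the minus strand and *Aurkc* chr7:7006044-7006073 on the plus strand. *Smc1b*, *Smc3*, *Stag3*, *Rad21* and *Plk1* held no CPE match in this window. The match is a description of letters, and whether the oocytes use these transcript ends was not measured.

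Per kilobase of transcript, the checkpoint and kinase genes were far more abundant than the meiosis-specific cohesin genes. On that scale, with the length of the canonical transcript, the median normalized count over the 32 staged oocytes was 2099 for *Bub1b*, 1832 for *Aurkc*, 1566 for *Mad2l1*, 919 for *Plk1*, 557 for *Aurka*, 249 for *Smc3*, 94.6 for *Rad21*, 25.7 for *Smc1b* and 10.2 for *Stag3*. *Rec8* was at 0. The first neighbours in this order were not separated beyond the spread between cells, since *Bub1b* lay above *Aurkc* in 23 of 32 oocytes and *Aurkc* above *Mad2l1* in 21. From *Mad2l1* downwards each gene lay above the next in 30 to 32 oocytes.

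*Rec8*, the meiotic kleisin (chromosome 14, 55618037 to 55625395 on the plus strand in GRCm38), had no count in 31 of the 33 oocytes. HOM oocyte 14 had 1 count and HOM oocyte 15 had 17. The 0 counts over the 6 WT SN oocytes allow a level of up to 0.0444 CPM, 3 counts in all their reads. No fold is given for *Rec8*, since the groups compared lie at or under this floor of 3 counts.

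*Smc1b*, the meiotic partner of SMC3 (chromosome 15, 85064689 to 85131964, minus strand), had normalized counts of 80.2, 83.9, 135 and 351 in the 4 WT NSN oocytes. The 6 WT SN oocytes ran from 75.6 through a median of 105 to 185. HET oocytes ran from 0 to 197 with a median of 133 at NSN, and from 73.5 to 144 with a median of 104 at SN. The HOM oocytes were at 51.7, 97.0, 118 and 133 at NSN and at 66.1 and 95.5 at SN. All groups overlapped, and 1 WT NSN oocyte, number 79, stood high above the rest.

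*Stag3*, which encodes the meiotic STAG subunit (chromosome 5, 138280240 to 138312393, plus strand), was at 31.3, 39.6, 40.5 and 74.1 in WT NSN oocytes and between 27.1 and 66.4 with a median of 37.95 in WT SN oocytes. HET oocytes spread from 0 to 110 with a median of 63.3 at NSN and from 22.2 to 86.04 with a median of 56.8 at SN. HOM oocytes lay between 30.0 and 49.2 at NSN and at 31.1 and 47.2 at SN. HET NSN oocyte 61 had no count of *Smc1b* or of *Stag3*, and it had the fewest genes with a count of the 33 oocytes, 14838.

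*Smc3*, the SMC subunit common to meiotic and mitotic cohesin (chromosome 19, 53600398 to 53645833, plus strand), was at 868, 1595, 1621 and 1767 in WT NSN oocytes and between 1301 and 1816 with a median of 1573 at SN. HET oocytes ran from 780 to 1512 with a median of 953 at NSN and from 1111 to 2161 with a median of 1260 at SN. HOM oocytes were at 980, 989, 1058 and 1299 at NSN and at 950 and 1159 at SN. At SN both HOM oocytes lay below the 6 WT oocytes, beside 15% of all genes without overlap. With base composition taken out, as described below, they overlapped. *Rad21*, the mitotic kleisin (chromosome 15, 51962240 to 51991747, minus strand), had group means of 366 to 441 with an SD of up to 208 (n = 9 in HET NSN), and its groups overlapped in all comparisons. HOM oocyte 15 was at 935.

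*Bub1b* encodes the checkpoint kinase-like protein BUBR1, a part of the complex that blocks the anaphase promoting complex (chromosome 2, 118598211 to 118641591, plus strand). The 4 WT NSN oocytes were at 6071, 7517, 7654 and 7670, and the 6 WT SN oocytes ran from 6144 through 7614 to 10523. HET oocytes ran from 4613 through 6678 to 8185 at NSN and from 7416 through 8317 to 11759 at SN. The HOM oocytes were at 8471, 10941, 11748 and 13649 at NSN and at 10663 and 12678 at SN. At each stage the HOM oocytes lay above all WT oocytes, beside 7.07% of all genes without overlap at NSN and 15% at SN.

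*Mad2l1*, which encodes the checkpoint protein MAD2 (chromosome 6, 66535390 to 66547220, plus strand), was at 1867, 2733, 2902 and 3256 in WT NSN oocytes and between 3010 and 4234 with a median of 3493 at SN. HET oocytes ran from 1796 to 3761 with a median of 2810 at NSN and from 2175 to 3528 with a median of 2760 at SN. HOM oocytes were at 1866, 2041, 2439 and 2835 at NSN and at 1985 and 2097 at SN. At SN the 2 HOM oocytes lay below all WT and all HET oocytes, beside 15% and 10.9% of all genes without overlap. With base composition taken out, as described below, they overlapped with both.

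*Aurka* encodes Aurora kinase A, the kinase of the spindle poles (chromosome 2, 172356190 to 172370535, minus strand). The 4 WT NSN oocytes were at 1038, 1168, 1361 and 1408, and the 6 WT SN oocytes ran from 1874 through 2421 to 2779. HET oocytes ran from 1206 through 1561 to 2441 at NSN and from 1220 through 2202 to 2462 at SN. HOM oocytes were at 1477, 1478, 1577 and 1781 at NSN and at 2019 and 2557 at SN. In WT and in HOM every SN oocyte lay above every NSN oocyte of its genotype, beside 9.69% and 20.2% of all genes without overlap. In HET, NSN oocyte 56 (2441) and SN oocyte 55 (1220) broke that order.

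*Aurkc*, which encodes the Aurora kinase of germ cells (chromosome 7, 6995300 to 7003091, plus strand), had group means between 2284 in HOM NSN and 3026 in HOM SN oocytes. It was at 1818, 2175, 2438 and 2706 in the HOM NSN oocytes and at 2730 and 3322 in the HOM SN oocytes. These did not overlap, beside 20.2% of all genes. *Plk1*, Polo-like kinase 1 (chromosome 7, 122159439 to 122169873, plus strand), had means of 1567 ± 430 (SD, n = 4) in WT NSN and 2200 ± 616 (n = 6) in WT SN oocytes. The HET means of *Plk1* were 1768 ± 382 (n = 9) at NSN and 2119 ± 518 (n = 7) at SN. In HOM they were 2232 ± 419 (n = 4) and 2755 ± 466 (n = 2). *Plk1* overlaps *Gm44985* on the other strand. No source used here says that reads were counted by strand, and without strand the 4012 counts of *Gm44985* cannot be told apart from *Plk1*, which had 73748.

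**Figure D1:**
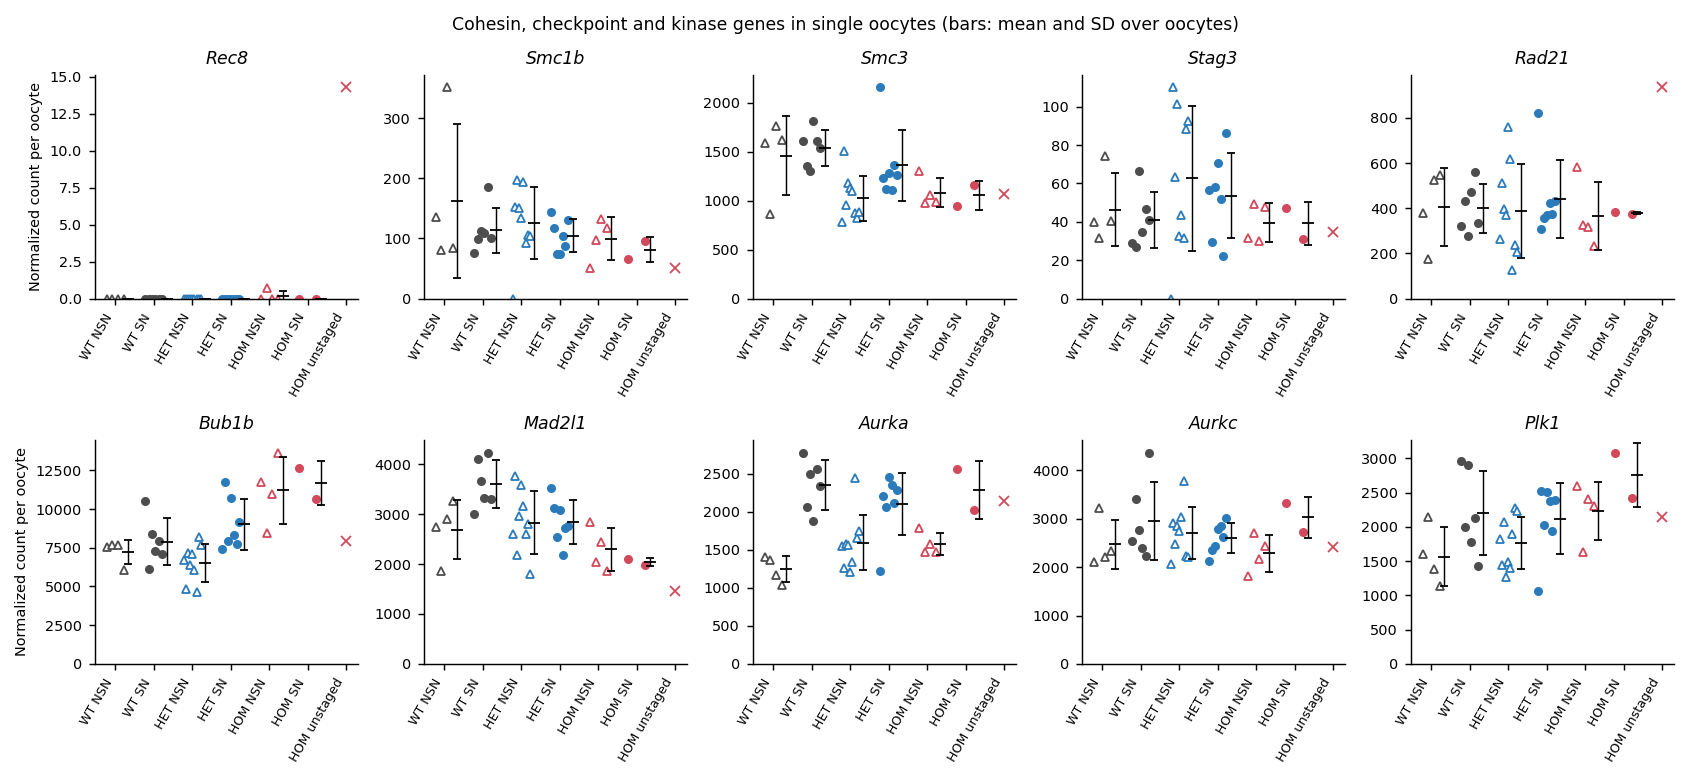
Normalized count of each gene (vertical axis, linear, from 0) in each oocyte, by genotype and stage on the horizontal axis, with open triangles for NSN, filled circles for SN and a cross for HOM oocyte 15. Black bars give the mean and SD over oocytes. *Aurka* is higher at SN than at NSN in WT and HOM, and its stages overlap in HET. The mean of *Bub1b* is highest in HOM at each stage, with overlap between HOM and HET at SN. *Rec8* lies at or near 0 outside HOM oocyte 15.

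The comparison of NSN with SN oocytes asks how the stored mRNA differs between the stages of maturation. Changes are given on the log2 scale of mean normalized counts with a pseudocount of 1, and a change of at least 0.5 in size, the fold used by the study, is called past the fold. *Aurka* had the largest change of the 10 genes in WT. Its mean was 1244 ± 172 (SD, n = 4) at NSN and 2353 ± 333 (n = 6) at SN, a log2 change of 0.92. In HOM the means were 1578 ± 143 (n = 4) and 2288 ± 380 (n = 2), a change of 0.54. In HET they were 1596 ± 366 (n = 9) and 2101 ± 411 (n = 7), a change of 0.40. Without HET oocytes 55 and 61 that value was 0.49.

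The log2 change of *Smc1b* was -0.51 in WT, a value that WT oocyte 79 decides, since without it the change was 0.19. In HET and HOM the change of *Smc1b* was -0.26 and -0.30, and in HET it was -0.53 without oocytes 55 and 61. *Plk1* was higher at SN by 0.49, 0.26 and 0.30 in WT, HET and HOM. *Bub1b* was higher at SN by 0.13, 0.47 and 0.06. The value in HOM was -0.07 without oocyte 7. *Mad2l1* was higher by 0.42 in WT, and its change was 0.01 in HET and -0.17 in HOM.

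In WT, 2 of the 9 genes measured were past the fold, *Aurka* upwards and *Smc1b* downwards, where 34.7% of 13896 genes were. In HET none was, against 29.5% of all genes, and in HOM 1 was, *Aurka*, against 38.2%. Among genes with a mean of at least 100, as 8 of the 9 have, the shares were 23.0%, 18.4% and 26.2%. The oocytes of the 2 stages did not overlap for *Aurka* in WT, against 9.69% of all genes, and for *Aurka* and *Aurkc* in HOM, against 20.2%. In HET no member was free of overlap, and 1.32% of all genes were. The 3 genotypes share no oocyte in this comparison, and 5 of the 9 genes had the same direction in each of them. *Bub1b*, *Aurka* and *Plk1* were higher at SN and *Smc1b* and *Stag3* lower, against 48.9% of all genes with a common direction. Of these 5, *Stag3* alone had a common direction in the means of the changes within the index sets given next. The median change of the 9 genes was 0.13, 0.18 and 0.05 in WT, HET and HOM, beside 0.02, -0.05 and -0.05 over all genes.

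Libraries that share a first index sequence were handled as sets, each of which held 1 genotype. Within the 6 sets with both stages, *Aurka* was higher at SN in 5. The log2 change of *Aurka* was 0.78, 1.15 and 0.68 in the 3 WT sets, 0.37 and -0.45 in the HET sets and 0.40 in the HOM set. The set with the negative value holds HET oocytes 55 and 56. *Bub1b* and *Mad2l1* were also higher at SN in 5 of 6 sets, by at most 0.33 and 0.90. *Smc1b* was higher in 3 and lower in 3. The mean change within the sets of a genotype had the other sign for *Aurka* (-0.04), *Plk1* (-0.32) and *Smc1b* (0.05) in HET, for *Bub1b* (-0.21) and *Smc3* (0.18) in HOM and for *Rad21* (0.28) in WT. In HET it was past the fold for *Smc3* (0.84) and *Rad21* (0.78). In WT it was past the fold for *Aurka* (0.87) and *Mad2l1* (0.53), whereas *Smc1b* was at -0.25. *Plk1* was at 0.42 in WT and 0.04 in HOM by this measure.

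**Figure D2:**
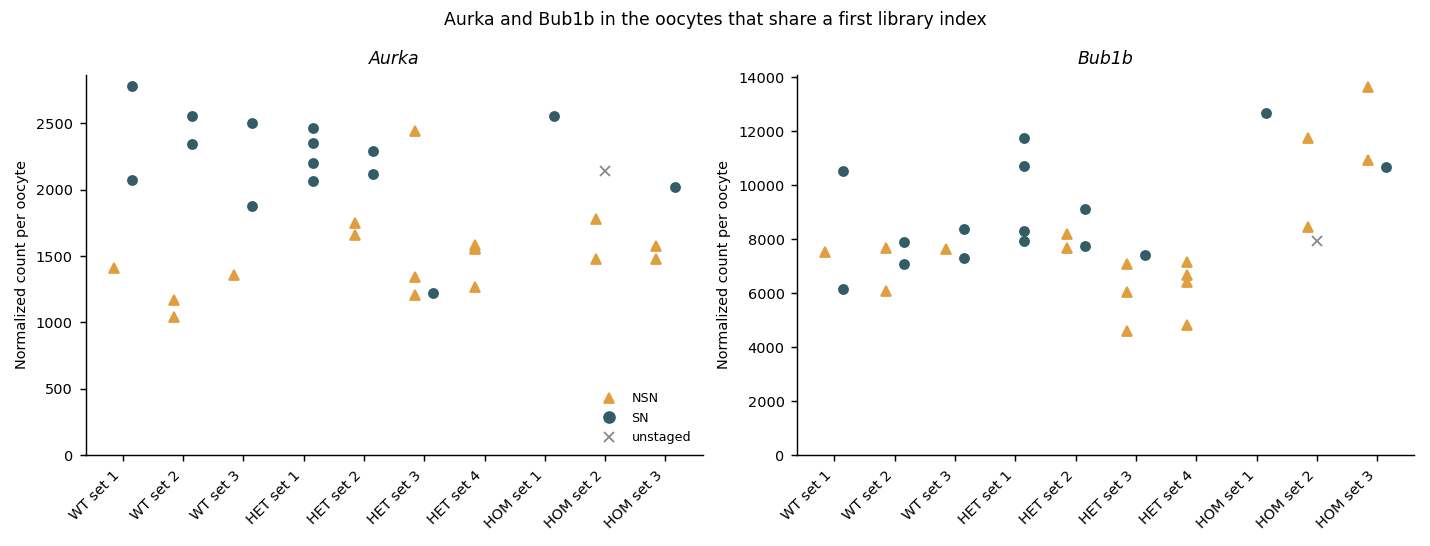
Normalized counts of *Aurka* (left) and *Bub1b* (right) in each oocyte (vertical axis), by the set of libraries with the same first index (horizontal axis), with triangles for NSN, circles for SN and a cross for the unstaged oocyte. Circles of *Aurka* lie above the triangles in the 3 WT sets, and the means of the HOM sets of *Bub1b*, 9380 to 12678, lie above the WT set means, 7183 to 8061. These means are taken without regard to stage, and the lowest HOM one includes the unstaged oocyte.

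The comparisons of genotypes ask which mRNAs differ with the dose of intact *Nlrp5* at a fixed stage. *Bub1b* was higher in HOM than in WT by 0.63 at NSN, where the means were 11202 ± 2146 (SD, n = 4) and 7228 ± 775 (n = 4). At SN it was higher by 0.56, with means of 11670 ± 1425 (n = 2) and 7893 ± 1496 (n = 6). Against HET, HOM oocytes were higher by 0.78 at NSN and by 0.37 at SN. HET differed from WT by -0.15 at NSN and 0.19 at SN. The comparisons share groups, so their values are set side by side only.

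HOM oocytes 29, 30 and 31 had *Bub1b* at 10941, 13649 and 10663, each above all WT oocytes of its stage. Their 13 granulosa markers summed to 18.8, 10.9 and 14.8 CPM, within the range of HET oocytes. In this sum oocytes 29 and 31 lay above the highest WT oocyte, at 13.5 CPM. The 2 HOM oocytes with the highest sums, 14 (308 CPM) and 15 (931 CPM), had the lowest *Bub1b* of the HOM oocytes, 8471 and 7920. Oocytes 13 (159 CPM) and 7 (110 CPM), the next in the sum, had *Bub1b* at 11748 and 12678, among the highest. The part of granulosa cell RNA in the *Bub1b* values was not tested. Since no index set holds 2 genotypes, genotype cannot be told apart from the index set in any of these comparisons. The lowest HOM set mean of *Bub1b*, 9380, lay below the highest HET set mean, 9683. The stages differ between these sets, since the first holds 2 NSN oocytes and unstaged oocyte 15 and the second 4 SN oocytes.

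*Mad2l1* was lower in HOM than in WT, with log2 changes of -0.82 at SN and -0.23 at NSN, and lower than in HET, with -0.48 and -0.30. *Smc3* was also lower in HOM than in WT (-0.55 at SN and -0.44 at NSN) and lower in HET than in WT (-0.51 at NSN and -0.18 at SN). With the base composition of each library taken out, as described below, *Mad2l1* at SN was at -0.35 in HOM against WT and at 0.01 in HOM against HET, *Smc3* in HOM against WT was at -0.19 at SN, and none of these groups was free of overlap. *Plk1* was higher in HOM than in WT by 0.51 at NSN and by 0.32 at SN. The change of *Smc1b* in HOM against WT was -0.70 at NSN, which again WT oocyte 79 decides, as the change without it was 0.0015. *Stag3* was lower in HOM than in HET, with -0.65 at NSN and -0.44 at SN. The changes of *Aurkc* and *Rad21* between genotypes ran from -0.24 to 0.22, both ends being *Aurkc* in HOM against HET.

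Of the 9 genes, 3 were past the fold between HOM and WT at NSN, *Bub1b*, *Plk1* and *Smc1b*, against 29% of all genes. At SN 3 were, *Bub1b*, *Smc3* and *Mad2l1*, against 36%. Between HET and WT 1 was at NSN, *Smc3*, against 20.1%, and none at SN, against 12.6%. Between HOM and HET 2 were at NSN, *Bub1b* and *Stag3*, against 27.3%, and none at SN, against 33.5%. Against these shares, which use genes with a mean of at least 10, only HOM against WT at NSN had a higher share of members. Against the shares at a mean of at least 100, given next, HOM against WT at SN lay above as well. HET against WT at NSN was near its share there. Among genes with a mean of at least 100, 18.9% and 26.0% were past the fold between HOM and WT at NSN and SN, 11.98% and 2.94% between HET and WT, and 18.1% and 23.6% between HOM and HET. Between HOM and WT, the oocytes did not overlap for *Bub1b* and *Aurka* at NSN, against 7.07% of all genes, and for *Bub1b*, *Smc3* and *Mad2l1* at SN, against 15%. No member was free of overlap between HET and WT, against 0.439% of all genes at NSN and 0.0792% at SN. *Bub1b* was free of overlap between HOM and HET at NSN, against 1.19% of all genes, and *Mad2l1* at SN, against 10.9%. Of the 12 changes past the fold, 5 stayed past it whichever single oocyte was left out, namely *Aurka* from NSN to SN in WT, *Bub1b* in HOM against WT and against HET at NSN, *Mad2l1* in HOM against WT at SN and *Stag3* in HOM against HET at NSN. Leaving out HOM oocyte 7, which leaves 1 HOM oocyte at SN, took *Bub1b* in HOM against WT to 0.43, *Smc3* to -0.41 and the change of *Aurka* from NSN to SN in HOM to 0.36. *Plk1* in HOM against WT at NSN was at 0.38 without WT oocyte 78, and *Smc3* in HET against WT at NSN was at -0.41 without WT oocyte 79.

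**Figure D3:**
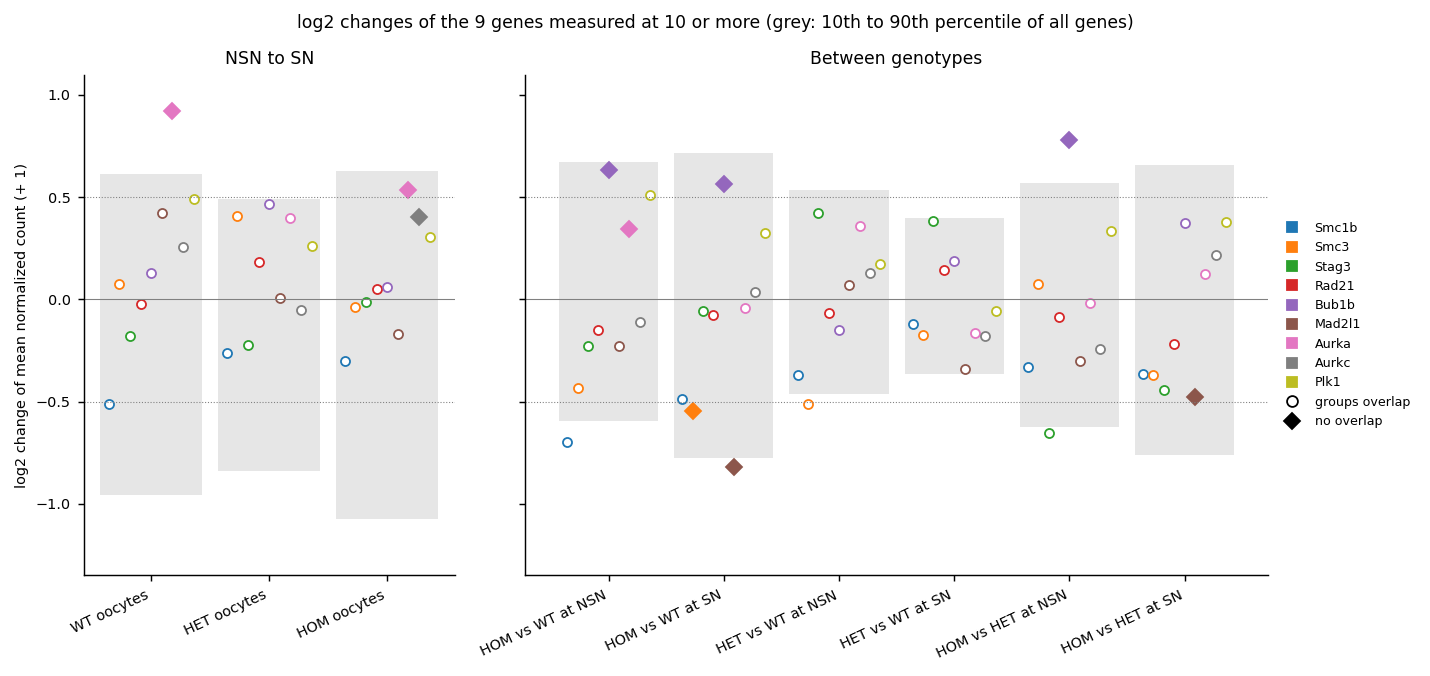
log2 change of the 9 genes (vertical axis) from NSN to SN in each genotype (left) and between genotypes at each stage (right), with the first-named group over the second. Filled diamonds mark genes whose oocytes do not overlap, grey bars span the 10th to 90th percentile of 13896 genes, and dotted lines mark 0.5. *Aurka* in WT (0.92), *Bub1b* in HOM against HET at NSN (0.78) and *Mad2l1* in HOM against WT at SN (-0.82) lie outside the grey bars, as do *Smc1b* in HOM against WT (-0.70), *Stag3* in HOM against HET (-0.65) and *Smc3* in HET against WT (-0.51), all at NSN.

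The genes also varied between oocytes of the same group, and this variation ran in opposite directions for 2 sets of members. After the mean of each genotype and stage was taken out, *Smc3* and *Rad21* moved together over the 32 oocytes (Pearson r = 0.74), as did *Rad21* and *Mad2l1* (0.68) and *Aurka* and *Plk1* (0.73). *Rad21* and *Aurka* were opposed (-0.68), as were *Smc3* and *Plk1* (-0.65). The values of a pair come from the same libraries, so they share depth and base composition.

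The members differ in base composition. The canonical transcripts of *Smc1b*, *Mad2l1*, *Smc3* and *Rad21* have a GC content of 39.8%, 41.5%, 42.3% and 44.3%, under that of most of the 8407 genes with a mean of at least 100. *Aurka* has 52.2% and *Plk1* 55.9%, and *Bub1b* lies between, at 50.5%. For each library the GC balance was taken as the mean log2 level of the 2102 genes with the highest GC minus that of the 2102 with the lowest. Within groups, it had a Pearson r of -0.77 with *Smc3*, -0.78 with *Rad21* and -0.77 with *Mad2l1*, and of 0.67 with *Aurka* and 0.48 with *Plk1*. With *Bub1b* it was 0.05. HET SN oocyte 55, with the lowest *Aurka* and the highest *Smc3* and *Rad21* of its group, had the lowest GC balance of the 32 oocytes, -1.30. HET NSN oocyte 56, with the highest *Aurka* and the lowest *Rad21*, had the highest of its group, 0.41.

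The GC balance also differed between the groups compared. It ran from -1.06 to 0.03 with a median of -0.75 in WT NSN oocytes, and from -0.72 to 0.34 with a median of -0.44 in HOM NSN oocytes. In WT SN oocytes it ran from -0.89 to -0.24, and the 2 HOM SN oocytes were at -0.31 and 0.60. When the median deviation of the genes in each of 20 GC bins was taken out of every oocyte, *Mad2l1* in HOM against WT at SN went from -0.82 to -0.35 and *Smc3* from -0.55 to -0.19, and in neither were the groups still free of overlap. *Mad2l1* in HOM against HET at SN went from -0.48 to 0.01. *Bub1b* in HOM against WT went from 0.63 to 0.60 at NSN and from 0.56 to 0.48 at SN, and these groups still did not overlap, whereas HOM and HET oocytes at NSN then did, with a change that went from 0.78 to 0.74. *Aurka* from NSN to SN went from 0.92 to 0.87 in WT, from 0.40 to 0.44 in HET and from 0.54 to 0.43 in HOM, and was free of overlap in WT and HOM as before. *Mad2l1* from NSN to SN in WT was at 0.51 after this step, and its stages then no longer overlapped. In HOM the change of *Mad2l1* from NSN to SN went from -0.17 to 0.22 and that of *Smc1b* from -0.30 to 0.18. *Plk1* in HOM against WT went from 0.51 to 0.39 at NSN and from 0.32 to 0.05 at SN.

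**Figure D4:**
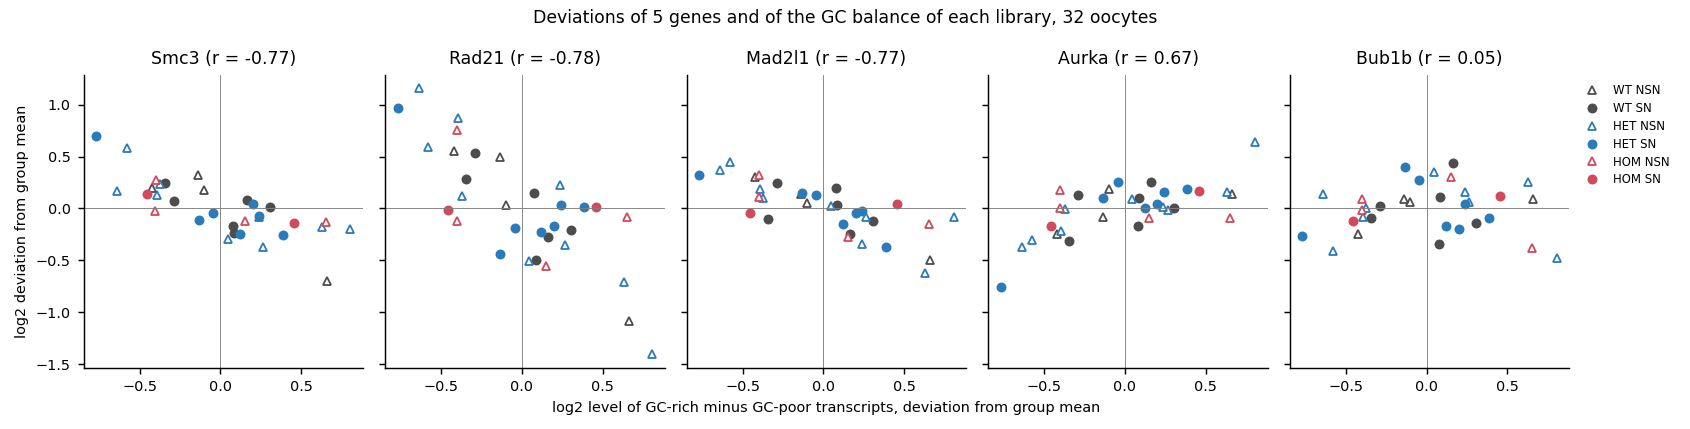
Deviation of 5 genes from the mean of their genotype and stage (vertical axis, log2) against the deviation of the GC balance of the same library (horizontal axis, log2), 32 oocytes, coloured by genotype with open triangles for NSN and filled circles for SN. *Smc3*, *Rad21* and *Mad2l1* decline with the balance (r = -0.77, -0.78 and -0.77), *Aurka* increases (0.67) and for *Bub1b* r is 0.05.

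The genes named here as most like each member within groups, among those with a mean of at least 100, had correlations of 0.82 to 0.97. They were *Cenpe*, *Kif20b* and *Ckap5* for *Smc3* (r = 0.93, 0.88 and 0.88), the first of which encodes a kinetochore motor. For *Bub1b* they were *Elp2* and *Rab3gap2* (0.82 each), for *Mad2l1* *Pex7*, *Brcc3* and *Memo1* (0.87, 0.87 and 0.85), and for *Aurka* *Zkscan6*, *Tubb6* and *Yipf3* (0.87, 0.87 and 0.86). *Smc1b* was most like *Kif13b*, *Pcf11* and *Plekhm3* (0.94, 0.93 and 0.91), *Rad21* like *Ranbp9*, *Psme4* and *Arih1* (0.91 each), and *Aurkc* like *Ndufs3*, *Fdx2* and *Pigyl* (0.88, 0.87 and 0.85). The values for *Smc1b* lean on HET oocyte 61, which had no count of it and deviated by -6.31, beside 1.39 in WT oocyte 79. No correlation was computed without oocyte 61. Each gene named was picked as among the highest of 8435 genes. The gene most like *Plk1* was the overlapping *Gm44985* (0.97), followed by *Nkd1* and *Fbxo46* (0.93 each).

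The other genes of these pathways were taken from 5 lists with 59 genes, all of them measured. From NSN to SN, 9 of the 59 were past the fold upwards and 5 downwards in WT, 6 and 5 in HET, and 3 and 9 in HOM. Of all genes, 14.1% were past it upwards and 20.6% downwards in WT, 9.75% and 19.8% in HET, and 14.5% and 23.6% in HOM. The medians of the 59 changes were 0.11, 0.20 and -0.07.

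Among the 4 other cohesin subunits, 1 was past the fold in each genotype, and it was *Rad21l*, which encodes a meiotic kleisin. Its log2 change was -1.82 in WT, -1.04 in HET and -2.36 in HOM. Its mean normalized count was 46.7 in WT NSN oocytes, with a range of 20.3 to 78.5, and 12.5 in WT SN oocytes, with a range of 0.57 to 34.3.

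Among 15 genes of cohesin loading, release and protection, *Pds5a* and *Pds5b*, which encode regulators bound to the ring, were lower at SN. The changes of *Pds5a* were -2.01, -0.92 and -0.96 in WT, HET and HOM, and those of *Pds5b* were -1.13, -0.44 and -1.30. *Sgo2b*, a relative of the shugoshin that protects centromeric cohesin, changed by 0.71 in WT, 1.11 in HET and -0.25 in HOM. In WT 1 of the 15 was past the fold upwards and 3 downwards, beside 14.1% and 20.6% of all genes, and in HET 4 and 1, beside 9.75% and 19.8%. In HOM 5 of the 15 were past the fold downwards, beside 23.6% of all genes, and none upwards, with a median of -0.27, beside medians of 0.04 in both WT and HET.

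Of 11 other spindle checkpoint genes, 1 was past the fold in each direction in WT and in HOM, and in HET 2 downwards and none upwards, beside the shares of all genes given above for the 59. *Trip13*, which encodes the ATPase that remodels MAD2, was lower at SN, with -0.56, -0.68 and -0.44 in WT, HET and HOM. Of 18 genes of the anaphase promoting complex and its regulators, 5 were past the fold upwards in WT and none downwards, beside 14.1% and 20.6% of all genes. In HET 1 was past it in each direction, and in HOM 2 upwards and 1 downwards. *Cdc20*, the activator that the checkpoint blocks, was higher at SN by 1.05, 0.22 and 0.43, and the subunit gene *Cdc26* by 0.69, 0.37 and 0.67. *Cdc20* was also higher in HOM than in WT by 1.14 at NSN and by 0.52 at SN. Its HOM NSN oocytes ran from 1158 to 1523 and its WT NSN oocytes from 401 to 1075. HET NSN oocytes, from 490 to 1523, spanned both, and *Cdc20* was higher in HET than in WT by 0.69 at NSN, with -0.14 at SN. In HOM against HET it was higher by 0.45 and 0.66. Of the other genes named here, *Sgo2b* was lower in HOM than in WT at SN (-1.21), with no overlap, beside 15% of all genes, and at -0.25 at NSN. At SN its 2 HOM oocytes were at 41.8 and 102.0, the lowest WT oocyte at 106.9 and the lowest HET oocyte at 101.5. *Rad21l*, *Pds5b* and *Trip13* had negative values in HOM against WT at both stages, *Cdc26* positive ones, and *Pds5a* was at -0.76 at NSN and 0.30 at SN. *Mad2l1bp*, a checkpoint gene that encodes a MAD2-binding protein and was picked after its values were seen, was at -1.17 at NSN and -1.04 at SN in HOM against WT, and at -1.45 and -0.58 in HOM against HET. Of 11 partners of the Aurora and Polo kinases, 2 were past the fold upwards in WT and none downwards, 1 and none in HET, and none and 1 in HOM, beside the same shares of all genes, and no gene of this list was named by the rule.

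Between HOM and WT, 3 of the 59 genes were past the fold upwards and 5 downwards at NSN, and 4 and 13 at SN. Between HOM and HET the numbers were 4 and 4 at NSN and 2 and 14 at SN, and between HET and WT 2 and 10 at NSN and 1 and 0 at SN. Of all genes, 15.8% were past it upwards and 13.2% downwards between HOM and WT at NSN, and 17.3% and 18.7% at SN. Between HOM and HET the shares were 12.7% and 14.7% at NSN and 15.4% and 18.1% at SN, and between HET and WT 11.4% and 8.65% at NSN and 7.03% and 5.56% at SN. Their medians were -0.07 and -0.18 for HOM against WT at NSN and SN, beside 0.00 and 0.01 over all genes.

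**Figure D5:**
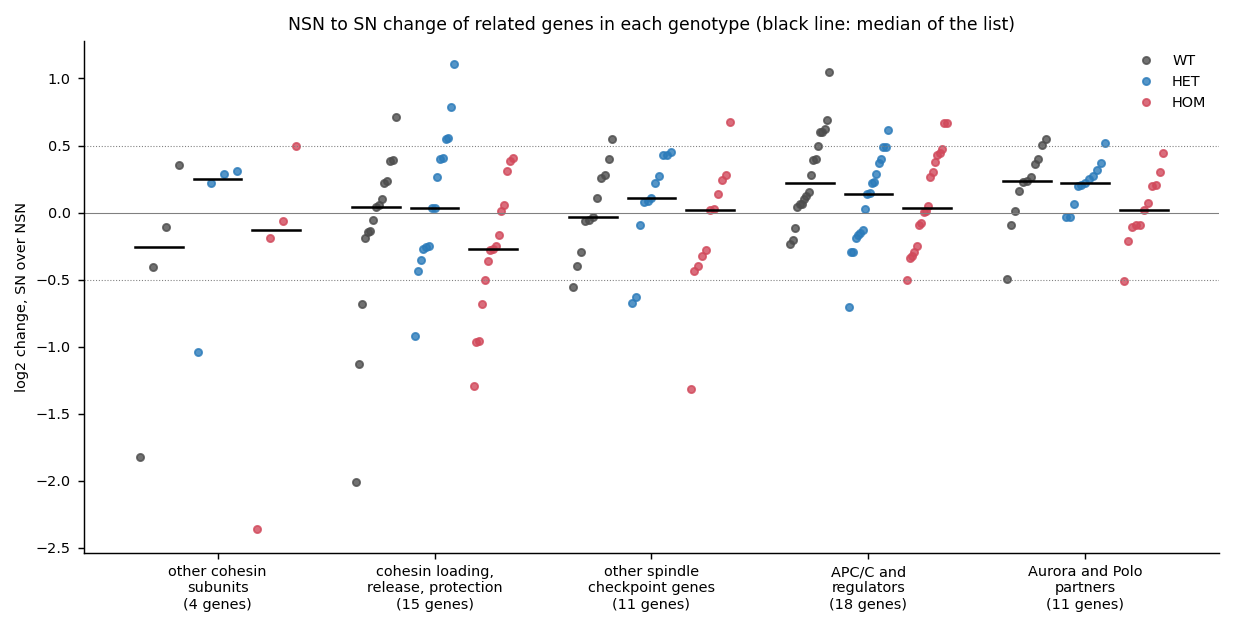
log2 change from NSN to SN (vertical axis) of the 59 genes of 5 lists (horizontal axis) in WT, HET and HOM oocytes, 1 point for each gene, with the median of the list as a black line and dotted lines at 0.5. The lowest point of the cohesin subunits is *Rad21l* (-1.82, -1.04 and -2.36), and the highest WT point of the anaphase promoting complex list is *Cdc20* (1.05).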

How the data were processed

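Single germinal vesicle oocytes were lysed, their polyadenylated RNA was separated from DNA, reverse transcribed from an oligo-dT primer, amplified and sequenced, without molecular identifiers. Per the submitters' notes and methods, Trim Galore and then HISAT2 were applied by the authors, who deposited unnormalized read counts per gene. Their table gives GRCm38 coordinates, whereas the methods name GRCm39. The deposited read total per library was 4023242 to 13405901, and the counts summed over genes were 91.7% to 123% of it, a difference whose origin was not tested. Tables of the authors' own comparisons, with fold changes and adjusted p-values, were not used. Repeated entries (52 of 35373) were left out.

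Genotype came from the labels. No label gives the stage, which was read from the stage bar of the study's staging heatmap and its principal component panels. The HET oocytes with a stage there are more than the study's text counts for each stage and genotype, and the reason is not given in the sources used here. Counts were divided by median-of-ratios size factors over the 33 oocytes, averaged with equal weight, and compared as log2 ratios of means with a pseudocount of 1. Shares over all genes used the 13896 genes with a mean of at least 10. The 10 members and all lists were chosen with earlier results of these data known. Named were the members, for each member the 3 most similar genes (1 gene is not reported here), and in each list up to 2 genes with the largest mean rise and 2 with the largest mean fall from NSN to SN past 0.5. Alternatives were total counts, TMM, size factors within the oocytes compared, medians, pooled sums, a pseudocount of 5, other filters, oocytes left out and genotypes without stage. Changes within index sets and the GC step were chosen after seeing the data. Poisson intervals (95%) on the pooled CPM of the members with over 100 counts were 0.747% to 14.9% of the value on either side and cover counting error only. The log2 change was tested on simulated data. The tools were edgeR 4.0.16 (R 4.3.3) for TMM factors, and pandas 2.3.3, numpy 2.4.6, scipy 1.17.1 and matplotlib 3.10.9 under Python 3.11.15.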

Additional observations from a re-analysis of the deposited data

Results flagged for a closer look

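In 46 sets of member values, each a gene in a group of 4 to 9 oocytes, 8 values lay farther from the rest of their group than Dixon's criterion allows, where chance alone gives about 1 in 20 groups. HET SN oocyte 55 accounts for 4 of them, with the highest *Smc3* (2161, next 1369) and *Rad21* (823, next 430) and the lowest *Aurka* (1220, next 2066) and *Plk1* (1068, next 1937) of 7 oocytes. It also has the lowest GC balance, and the part of that in these values was not tested apart from the GC step given above. HET NSN oocyte 56 had the highest *Aurka* of 9, 2441, with the next at 1750. WT NSN oocyte 78 had the lowest *Bub1b* of 4, 6071, with the next at 7517. WT SN oocyte 77 had the highest *Smc1b* of 6, 185, with the next at 113. HOM NSN oocyte 14 had a normalized *Rec8* count of 0.693, from 1 read, where the other 3 had none. Where all other values of a group are equal, any different value passes the criterion. The criterion therefore cannot decide whether this *Rec8* value is far, and the chance rate does not apply to it. It is still counted among the 8 values, and its group among the 46 sets.

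HOM oocyte 15, which has no stage and entered no comparison by stage, had a normalized *Rec8* count of 14.3 (17 counts), where the 10 WT oocytes had none, and a *Rad21* count of 935, above the highest WT oocyte at 562 and the highest staged oocyte at 823. Its 16 granulosa markers summed to 1327 CPM, the highest of the 33, and its 9 oocyte markers to 16694 CPM, the lowest. Their part in these values was not tested.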

How the results depend on the processing

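Of 12 log2 changes of members past 0.5, 210 of 212 alternative values kept the sign and 166 stayed past 0.5. The 2 with the other sign were *Smc1b* without WT oocyte 79, at 0.19 from NSN to SN in WT and at 0.0015 for HOM against WT at NSN. With any 1 oocyte left out these ran from -0.73 to 0.19 and from -0.92 to 0.0015. From NSN to SN the number of members past 0.5 was 2 in WT, 1 with medians over oocytes and 1 with a pseudocount of 5. In HET it was 0, but 2 without oocytes 55 and 61 and 2 within index sets. In HOM it was 1, but 0 with pooled sums, 0 within index sets and 0 with GC bins centred. HOM against WT gave 1 at NSN and 0 at SN with GC bins centred, in place of 3 each. HET against WT at NSN gave 2 with medians, 0 without regard to stage and 0 with GC bins centred, in place of 1, and at SN 1 with medians, in place of 0. HOM against HET at SN gave 1 with medians, 2 without regard to stage and 1 with GC bins centred, in place of 0. With 1 oocyte left out the number ran from 1 to 3, 0 to 1 and 0 to 3 for the stages in WT, HET and HOM, from 1 to 4 for HOM against WT at either stage, from 0 to 2 and 0 to 1 for HET against WT at NSN and SN, and was 2 for HOM against HET at NSN and 0 to 3 at SN. The cause was not tested. Over the 9 comparisons, 12.6% to 38.2% of all genes were past 0.5, 23.0% to 40.7% with no filter and 2.94% to 26.2% at a mean of at least 100. Scaling by total counts or pooled sums moved the median of all genes by -0.11 for the stages in WT and by less than 0.05 elsewhere. Each oocyte has a number of its own, so no replicate number pairs oocytes across groups. The stages could be compared within index sets, as given above, and the genotypes could not.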
